A study of Mus musculus with 4 samples.

Results

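Alpha and beta crystallins are 8 of the 56748 genes in a table of RNA sequencing from mouse lenses, and they were taken by gene name. They comprise 2 alpha crystallins (Cryaa and Cryab), 3 acidic beta crystallins (Cryba1, Cryba2 and Cryba4) and 3 basic beta crystallins (Crybb1, Crybb2 and Crybb3). The study asked how the lens responds when an activated PDGF receptor beta is expressed in it. Mutant lenses came from Fsp1-cre;Pdgfrb+/D849V mice and control lenses, per their labels, from Fsp1-cre;Pdgfrb+/+ mice, so that by these labels both groups carried the Cre transgene. The mice were 10 to 12 days old, the lenses of several mice were pooled for each library, and each group had 2 libraries. The methods of the study name a wider control pool that also held mice without Cre, of Pdgfrb+/+ and Pdgfrb+/D849V genotype, and which control lens went into which library is not given in the sources used here. D849V is a kinase-activating change in the receptor, knocked into 1 copy of Pdgfrb so that it is expressed under that gene's own promoter once Cre has acted. The line was on the FVB/N background and also carried a Rosa-LSL-tdTomato Cre reporter. Cre was driven by the Fsp1 (S100a4) promoter, which is not particular to lens cells. The paper describes Cre reporter activity in the lens epithelium, and cataract, at ages later than those sampled here. It assumes that the mutant receptor is expressed once Cre is induced, so its activity in these lenses was not shown. Nothing in the sources says whether the 2 pools of a group came from separate litters, so p-values measure the spread between pools. In bulk RNA, fewer cells of a type and less RNA per cell cannot be told apart.

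Crystallins are the proteins that fill the elongated fiber cells of the lens and give it transparency and refractive power. The alpha crystallins belong to the small heat shock protein family and act as chaperones that hold unfolding proteins in solution. Cryaa is made almost only in the lens, whereas Cryab is also abundant in heart and muscle. The beta crystallins share a Greek-key fold with the gamma crystallins, and acidic and basic subunits assemble with each other into dimers and larger oligomers. Mutations in most of these genes cause inherited cataract. Their transcription in fiber cells depends on Maf, Sox and Pax6 family factors, with Hsf4 and Prox1 acting in differentiating fibers.

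No member differed between mutant and control lenses by limma with Benjamini-Hochberg adjustment over all 15997 genes that averaged 0.1 FPKM or more. FPKM is the number of sequenced fragments divided by gene length in kilobases and by the sequencing depth of the library. Of the 8 members, 0 had an adjusted p under 0.05, beside 0.0375% of all genes tested, and 0 had an unadjusted p under 0.05, beside 6.31% of all genes tested. The mean of the mutant libraries was above that of the controls for 5 members and below it for 3. The median log2 difference (mutant minus control) over the members was 0.04, beside 0.0041 over all genes tested. Crybb3 was the 1 member whose mutant and control libraries did not overlap, whereas 36.6% of all genes tested did not overlap.

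The libraries held 18561682 to 18878768 reads, recovered as whole numbers from the FPKM values, and each member rested on at least 294423 reads in every library, so counting error was small beside the spread between pools. Lens fiber markers were abundant, with a summed level of 8565 to 9772 FPKM over 9 genes. Lim2 of that list was listed at 0 in all 4 libraries (ENSMUSG00000118560), and whether this reflects its expression was not tested. The 4 lens epithelium markers summed to 117 to 141 FPKM. Markers of neighboring tissues were low beside the members, with sums of 1.67 to 4.53 FPKM for 11 retina genes, 17.2 to 34.9 for 5 blood genes, 3.41 to 6.61 for 5 vessel and pericyte genes, and at most 1.39 for the pigment cell, cornea and macrophage lists. Pdgfrb itself was at 2.36 and 2.16 FPKM in the mutants and at 2.25 and 1.79 in the controls, a level that does not separate the mutant from the normal allele and so checks no label. In the mutant mean, 0 of 4 epithelium markers were higher and 4 lower, as against 5 and 1 of the 6 retina genes that passed the filter, 0 and 3 of 3 blood genes, 0 and 4 of 4 vessel and pericyte genes, 0 and 2 of 2 pigment cell genes, 0 and 1 of 1 cornea gene, 1 and 0 of 1 macrophage gene, and 3 and 2 of 5 sex-linked genes, with 0 called in any list. The part of these markers in the members' values was not tested. The libraries were of mixed sex composition, with Xist, the RNA of the inactive X chromosome, at 7.62 and 13.1 FPKM in the mutants and at 15.6 and 5.56 in the controls. Of the Y-linked genes, Eif2s3y stood at 7.10 and 4.82 FPKM in the mutants and at 3.02 and 7.13 in the controls.

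The sequence just upstream of the start of transcription is shown for 6 members, because a short motif recognized by Maf factors, the principal activators of crystallin genes, lay in most of them. RefSeq held a promoter entry for 7 of the 8 members (GRCm38.p6), and the exception was Cryab. TGCTGA, the core of the Maf half-site, was searched on either strand within 250 bases upstream of the start. It was found in 6 of 7 members, in 4 of 8 gamma crystallins and in 16.1% of all 32851 promoters counted. Here and below, the promoters counted leave out those of a chromosome that holds no member. The half-site did not overlap the other motifs searched. Each line gives the 120 bases that end at the base before the start, read along the strand of the gene, with the half-site in capitals (TCAGCA is the same half-site on the opposite strand).
Cryaa (chr17:31677811-31677930, plus strand): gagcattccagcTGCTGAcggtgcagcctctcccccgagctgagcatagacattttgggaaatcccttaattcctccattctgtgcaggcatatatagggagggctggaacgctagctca
Cryba1 (chr11:77725294-77725413, minus strand): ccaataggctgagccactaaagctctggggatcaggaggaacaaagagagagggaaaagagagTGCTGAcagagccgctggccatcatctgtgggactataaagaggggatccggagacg
Cryba4 (chr5:112252519-112252638, minus strand): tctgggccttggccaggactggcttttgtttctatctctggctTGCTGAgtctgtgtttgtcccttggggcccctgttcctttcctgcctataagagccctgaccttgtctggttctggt
Crybb1 (chr5:112255700-112255819, plus strand): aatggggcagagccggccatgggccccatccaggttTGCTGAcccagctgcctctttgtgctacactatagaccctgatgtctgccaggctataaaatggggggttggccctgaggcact
Crybb2 (chr5:113070118-113070237, minus strand): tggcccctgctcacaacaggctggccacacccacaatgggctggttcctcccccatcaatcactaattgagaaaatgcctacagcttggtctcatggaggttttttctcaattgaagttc
Crybb3 (chr5:113081585-113081704, minus strand): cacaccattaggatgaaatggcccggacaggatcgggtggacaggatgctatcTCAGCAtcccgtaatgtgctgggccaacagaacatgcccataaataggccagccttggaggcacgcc

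Counted in bases before the start, the half-site began at -108 in Cryaa, -57 in Cryba1, -84 in Crybb1 and -67 in Crybb3. Cryba4 held 3 copies, at -182, -135 and -77, of which the last is in the stretch shown, and Cryba2 held 1 on the opposite strand at -149. Crybb2 had no copy of these letters in the window, which says nothing of whether Maf binds there. A TATA box spelled TATAAA lay at -23 in Cryba1 and at -30 in Crybb1 (2 of 7 members, 12.4% of all promoters). The Sox motif AACAAT was found in 1 of 7 members, Crybb1, and in 9.42% of all promoters. The core of the heat shock element, GAANNTTC, which Hsf4 binds, was found in 0 of 7 members and in 6.69% of all promoters.

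The alpha crystallins were the first group compared. Cryaa (ENSMUSG00000024041, chr17:31896781-31900707 of the deposited table, whose build the processing notes of the submitters name as mm39, plus strand) encodes alpha A crystallin, the lens-restricted chaperone subunit. Its level was 74239 and 67231 FPKM in mutant replicates 1 and 2, and 66165 and 73682 FPKM in control replicates 1 and 2. The groups overlapped, with mutant replicate 1 highest and control replicate 1 lowest, and the means were 70735 ± 4955 FPKM in mutants and 69923 ± 5316 in controls (SD, n = 2 libraries each). On the scale of log2(FPKM + 0.1), used for every difference tested, Cryaa differed by 0.02 (mutant minus control, SE 0.28, 95% confidence interval -0.70 to 0.74, limma adjusted p = 0.996). Cryaa alone took 14.6% of the reads in each mutant library, and 14.4% and 15.1% in the controls.

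Cryab (ENSMUSG00000032060, chr9:50662625-50667936, plus strand) encodes alpha B crystallin, the stress-inducible partner of alpha A. Its level was 27108 and 21471 FPKM in the mutants and 22095 and 23956 FPKM in the controls. The mutant libraries held both the highest and the lowest value, so the control range lay inside the mutant range. The difference was 0.07 on the log2 scale (SE 0.23, 95% confidence interval -0.53 to 0.67, limma adjusted p = 0.962). Hspb2, a small heat shock protein gene transcribed from the opposite strand, overlaps Cryab over 1030 bases in the deposited table. Hspb2 was at 15.3 and 17.3 FPKM in the mutants and at 17.6 and 14.7 in the controls, and the mean level of Cryab was 1457-fold higher. In addition, 20.4% of the 31-base words of the longest coding Cryab transcript also occur in transcripts of Hspb2, and the sources used here do not state whether counting used strand.

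The ratio of Cryaa to Cryab was 2.74 and 3.13 in the mutants and 2.99 and 3.08 in the controls, and its mean was 2.93 ± 0.278 against 3.04 ± 0.0574 (SD, n = 2). The control ratios lay between the mutant ratios. Both alpha crystallin genes together took 18.3% and 18.0% of the reads in the mutants, and 17.8% and 18.6% in the controls. The difference of the mean shares was -0.0498 percentage points (exact permutation test, two-sided, p = 1, where 2 libraries against 2 can go no lower than 0.333).

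**Figure D1:**
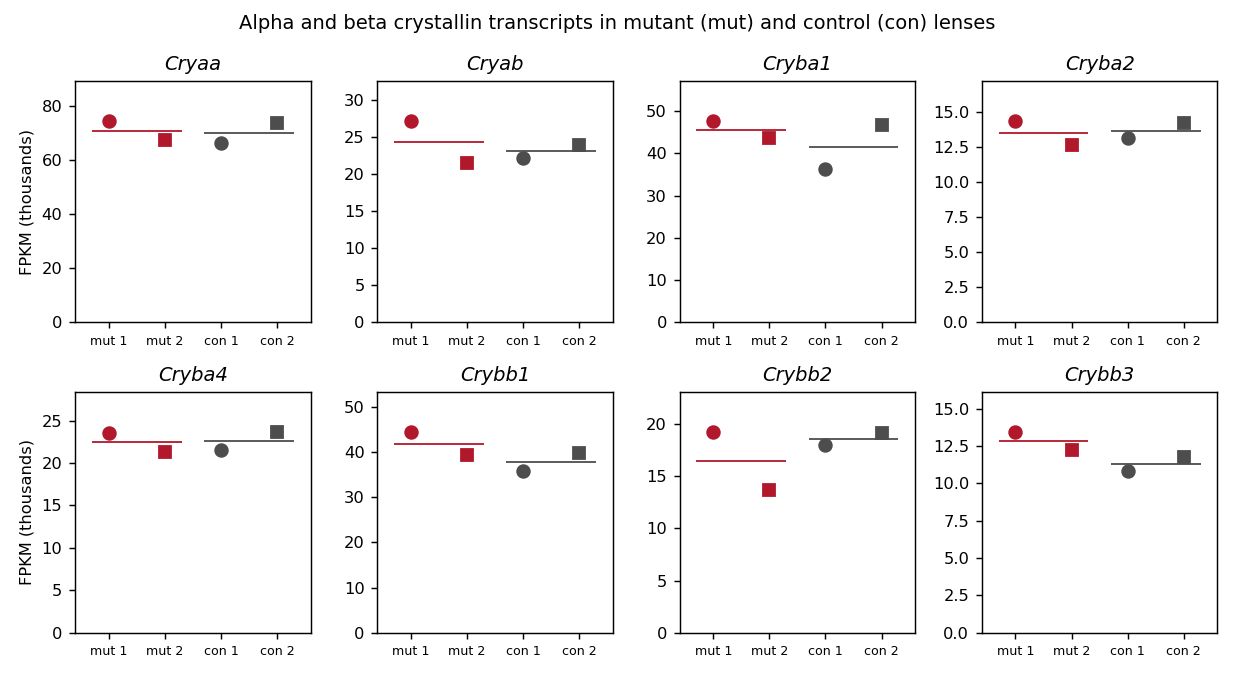
Level of each of the 8 crystallin genes in FPKM divided by 1000 (vertical axes, from 0) in the 2 mutant (red) and 2 control (gray) libraries, circles for replicate 1 and squares for replicate 2, with a line at the mean of each group. Mutant replicate 1 was above mutant replicate 2 in all 8 panels, and in the panel of Crybb3 both mutant points lie above both control points.

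The acidic beta crystallins came next. Cryba1 (ENSMUSG00000000724, chr11:77609441-77616109, minus strand) encodes both beta A1 and beta A3 crystallin from alternative start codons. Its level was 47631 and 43675 FPKM in the mutants and 36302 and 46719 FPKM in the controls. Control replicate 1 stood below the other 3 libraries, whereas control replicate 2 lay between the mutants. The difference was 0.15 on the log2 scale (SE 0.27, 95% confidence interval -0.54 to 0.84, limma adjusted p = 0.920). Without control replicate 1 it was -0.035, and without control replicate 2 it was 0.33.

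Cryba2 (ENSMUSG00000006546, chr1:74929093-74932302, minus strand) encodes beta A2, a less abundant acidic subunit. Its level was 14332 and 12605 FPKM in the mutants and 13101 and 14211 FPKM in the controls. The control values lay inside the range of the mutant values, and the difference was -0.02 on the log2 scale (SE 0.19, 95% confidence interval -0.51 to 0.47, limma adjusted p = 0.988). Cryba4 (ENSMUSG00000066975, chr5:112394359-112400384, minus strand) encodes beta A4, an acidic subunit that pairs with basic ones. Its level was 23566 and 21305 FPKM in the mutants and 21553 and 23665 FPKM in the controls. The groups overlapped over nearly their whole range, and the difference was -0.01 (SE 0.21, 95% confidence interval -0.56 to 0.53, limma adjusted p = 0.997).

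Of the basic beta crystallins, Crybb1 (ENSMUSG00000029343, chr5:112403681-112417451, plus strand) encodes beta B1, a subunit whose long terminal extension is trimmed as the lens ages. Its level was 44435 and 39249 FPKM in the mutants and 35880 and 39829 FPKM in the controls. Mutant replicate 1 was highest and control replicate 1 lowest, and the other libraries were close to each other with the control above the mutant. The difference was 0.14 on the log2 scale (SE 0.25, 95% confidence interval -0.49 to 0.77, limma adjusted p = 0.917).

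Crybb2 (ENSMUSG00000042240, chr5:113206124-113217983, minus strand) encodes beta B2, the most soluble of the basic subunits, which is also found outside the lens. Its level was 19214 and 13681 FPKM in the mutants and 17929 and 19066 FPKM in the controls. Mutant replicate 2 stood below the other 3 libraries and mutant replicate 1 was the highest of all, so the controls lay inside the mutant range. Mutant replicate 2 was at 0.730 of the mean of the other 3 libraries, the lowest such ratio among the members, whose other values ran from 0.880 to 1.02. The difference was -0.19 on the log2 scale (SE 0.25, 95% confidence interval -0.82 to 0.44, limma adjusted p = 0.881), and without mutant replicate 2 it was 0.056. Of the gamma crystallins, Crygs and Cryge, chosen here after their values were seen, had like ratios for mutant replicate 2, at 0.722 and 0.716.

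Crybb3 (ENSMUSG00000029352, chr5:113223705-113229450, minus strand) encodes beta B3, a basic subunit of the young lens. Its level was 13437 and 12258 FPKM in the mutants and 10809 and 11729 FPKM in the controls. Both mutant libraries were above both control libraries, with means of 12847 ± 833 and 11269 ± 650 FPKM (SD, n = 2). The difference was 0.19 on the log2 scale (SE 0.18, 95% confidence interval -0.28 to 0.66, limma adjusted p = 0.831). Without any 1 of the 4 libraries it lay between 0.12 and 0.25. As the groups did not overlap, its sign could not turn there, so this adds no support. When every library was scaled to its total of recovered reads, the difference was 0.16 with an interval of 0.0028 to 0.31. The unadjusted p was 0.0473 and the adjusted p 0.874 by limma. On that scale 762 of 15997 genes tested had an unadjusted p under 0.05. No other setting with all libraries gave a member an unadjusted p under 0.05. Voom on the recovered reads gave 0.19 (SE 0.12) and called 0 members, beside 0.0875% of all genes tested.

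**Figure D2:**
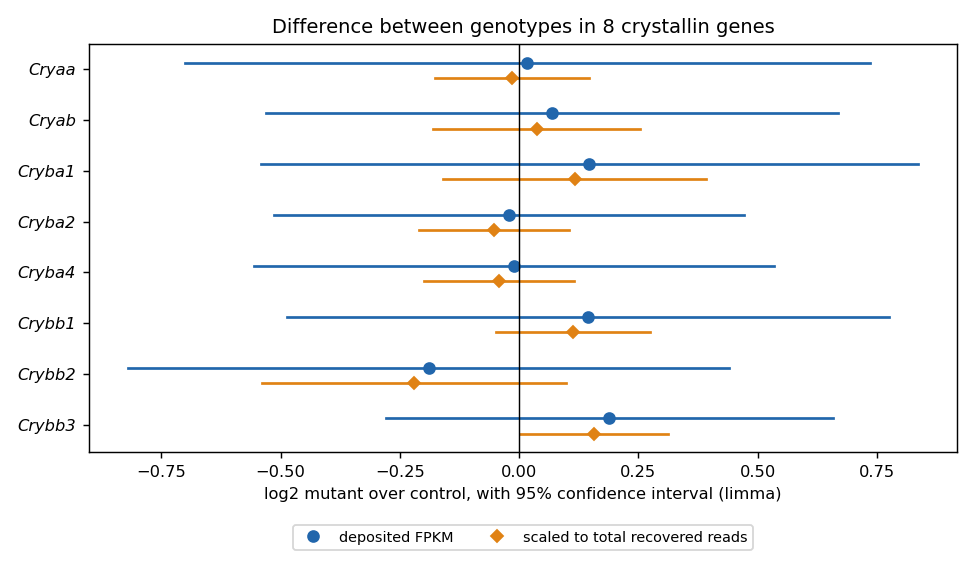
Log2 difference between mutant and control (horizontal axis) for each member, with its 95% confidence interval from limma, on the deposited FPKM (blue circles) and on values scaled to total recovered reads (orange diamonds). All intervals on deposited FPKM include 0, and on the other scale the interval of Crybb3, 0.0028 to 0.31, lies above it (limma adjusted p = 0.874).

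The intervals give the differences that these libraries do not exclude, and they depended on the fit. On deposited FPKM the standard errors ran from 0.18 to 0.28, and no interval reached a log2 difference of 1 or -1. With the replicate number as a block the intervals of 5 members did, the widest being that of Cryaa from -1.31 to 1.35. Without a filter on FPKM, and with any 1 library left out, those of all 8 did (without a filter, -5.21 to 5.25 at the widest). Scaled to total reads, the standard errors ran from 0.06 to 0.12, and the direction of Cryaa turned, with a difference of -0.014. Differences inside these intervals are not excluded with 2 pools per genotype, and the intervals are not limits of detection.

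A pattern common to the members ran within the genotypes and not between them. On deposited FPKM, mutant replicate 1 was above mutant replicate 2 in 8 of 8 members, and control replicate 2 was above control replicate 1 in 8 of 8. The other highly expressed genes were ordered much the same way, since mutant replicate 1 was above replicate 2 in 8 of 8 gamma crystallins and in 12 of 13 other genes of at least 1000 FPKM, and control replicate 2 above replicate 1 in 6 of 8 and 10 of 13. Both orders together were seen in 26.1% of all genes tested, most of which were far lower in level. Averaged over the members after centering each on its own mean, the log2 levels stood at 0.13 and -0.09 in the mutants and at -0.10 and 0.06 in the controls. On the share of reads, mutant replicate 1 was above mutant replicate 2 in 4 of 8 members, whereas control replicate 2 stayed above control replicate 1 in 8 of 8. The denominator that the deposited FPKM imply, divided by the total of recovered reads, was 0.944 and 1.05 in the mutants and 1.05 and 0.987 in the controls. The libraries in which the members were lower, mutant replicate 2 and control replicate 1, were thus those with the larger denominators, and they also had the higher Xist.

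The members were therefore also compared between libraries of like Xist level. Between mutant replicate 1 and control replicate 2, Crybb3 differed by 0.20 on the log2 scale, and between mutant replicate 2 and control replicate 1 by 0.18. For Crybb1 these differences were 0.16 and 0.13, and for Cryaa they were 0.01 and 0.02. The mean of both pair differences is the overall difference by construction, so these values show only how evenly it was split between the pairs, with 1 library on each side. Crybb2 differed by 0.01 in the first pair and by -0.39 in the second, and Cryba1 by 0.03 and 0.27. The differences in Cryab were 0.18 and -0.04, in Cryba2 0.01 and -0.06, and in Cryba4 -0.01 and -0.02.

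**Figure D3:**
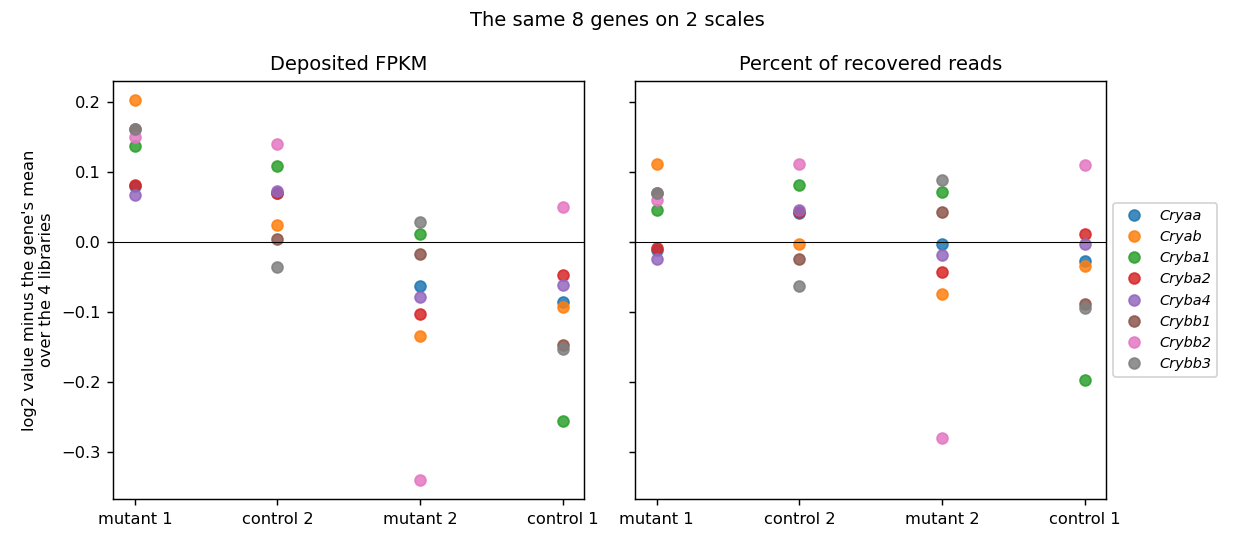
Log2 level of each member minus its own mean over the 4 libraries (vertical axis) on deposited FPKM (left) and on the percent of recovered reads (right), with the 2 libraries of lower Xist level at the left of each panel. In the left panel all members but Crybb3 are above 0 in control replicate 2, and all 8 are above 0 in mutant replicate 1, and in the right panel Crybb2 in mutant replicate 2 and Cryba1 in control replicate 1 stay farthest below 0.

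By the root mean square difference of these centered profiles over the 4 libraries, Cryaa was 0.029 from the mean profile of the members, Crybb2 was the farthest at 0.153, and Cryba1 and Crybb3 stood at 0.096 and 0.080. Among the 1652 genes outside the crystallin lists with a mean of at least 10 FPKM, the profiles most like that mean were those of Mrpl28, a mitochondrial ribosomal protein gene, at 0.0043, Rexo2, an oligoribonuclease gene, at 0.0098, and Ndufa8, a complex I subunit gene, at 0.014. Arl1 and Dynlt3 followed at 0.018 and 0.019, and the median over the 1652 genes was 0.111. These profiles are relative and rest on 4 libraries that all genes share. In absolute terms Mrpl28 averaged 41.5 FPKM, far below any member.

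In level, the 8 members ranked between 2 and 16 among all genes in every library, and the 16 highest genes by mean FPKM included these 8 and 7 gamma crystallins. The order by mean FPKM over the 4 libraries was Cryaa at 70329, Cryba1 at 43582, Crybb1 at 39848, Cryab at 23657, Cryba4 at 22522, Crybb2 at 17472, Cryba2 at 13562 and Crybb3 at 12058. Each was above the next in 4 of 4 libraries. Over libraries, however, the ranges of Cryba1 and Crybb1 overlapped, as did those of Cryab and Cryba4, of Crybb2 and Cryba2, and of Cryba2 and Crybb3. The ranges of Cryaa and Cryba1, of Crybb1 and Cryab, and of Cryba4 and Crybb2 did not overlap, and Cryaa was 1.61-fold above Cryba1. The coefficient of variation of a member over all 4 libraries was between 5.63% and 14.8%, lowest in Cryba4 and highest in Crybb2.

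The order depended on the length by which reads were divided. The deposited gene lengths exceed those of the longest protein-coding transcript in GENCODE M21 by 1.04-fold for Cryba4 up to 2.62-fold for Crybb3. With the transcript lengths, a choice made after seeing the data, Cryaa, Cryba1 and Crybb1 kept the first places at 115326, 89292 and 44502 FPKM. Crybb2 came to the fourth place at 38802 and Crybb3 to the fifth at 31538, with Cryab at 31324, Cryba4 at 23358 and Cryba2 at 22472 after them. The comparison between genotypes is within a gene and does not depend on this length.

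**Figure D4:**
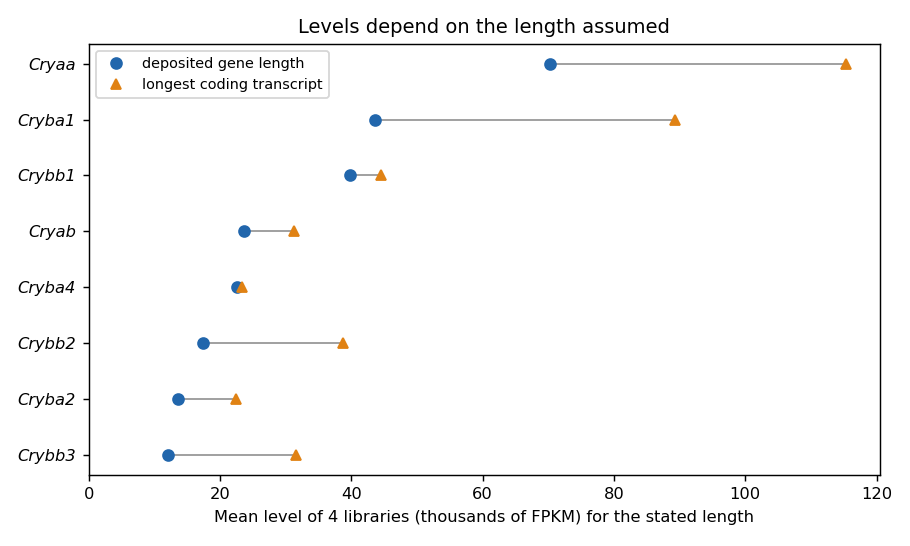
Mean level of each member over the 4 libraries in FPKM divided by 1000 (horizontal axis), computed with the deposited gene length (blue circles) and with the length of the longest coding transcript (orange triangles), with members in order of the deposited value. Crybb3 moves from 12058 to 31538 FPKM and Crybb2 from 17472 to 38802, whereas Cryba4 moves from 22522 to 23358.

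Together the 8 genes took 39.7% and 38.7% of the reads in the mutants, and 37.5% and 39.9% in the controls. The beta crystallins took 21.4% and 20.7% in the mutants and 19.7% and 21.3% in the controls, a difference of 0.515 percentage points between the means (exact permutation test, two-sided, p = 0.667). Control replicate 1 had the lowest beta share. The log2 ratio of beta to alpha crystallin reads was 0.22 and 0.20 in the mutants and 0.15 and 0.20 in the controls. Both mutants stood above both controls, although mutant replicate 2 and control replicate 2 were close, at 0.2036 and 0.1987, and the difference of 0.04 had an exact permutation p of 0.333, the smallest that 2 against 2 can give. The log2 ratio of acidic to basic beta crystallin reads was -0.01 and 0.11 in the mutants and -0.08 and 0.08 in the controls, and these overlapped (difference 0.05, exact permutation p = 0.667). Of all alpha, beta and gamma crystallin reads, the members made up 63.2% and 65.9% in the mutants and 63.6% and 64.9% in the controls.

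**Figure D5:**
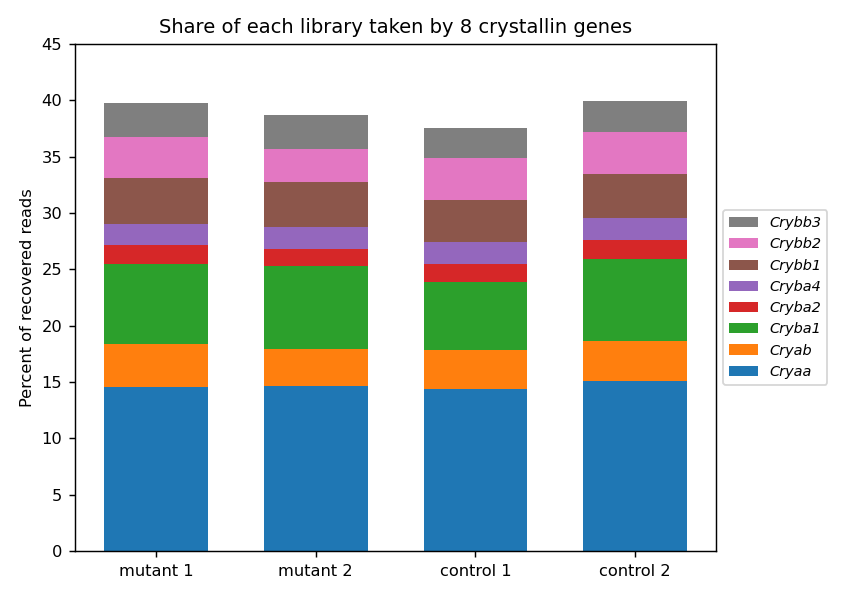
Percent of recovered reads (vertical axis, from 0) taken by each of the 8 genes in the 2 mutant and 2 control libraries, stacked from Cryaa at the bottom to Crybb3 at the top. The stacks reach 39.7%, 38.7%, 37.5% and 39.9%, and Cryaa with Cryba1 makes up more than the other 6 genes together.

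All 3 basic subunit genes and Cryba4 lie on chromosome 5 as 2 pairs of neighbors. Cryba4 and Crybb1 are transcribed away from each other, with 3296 bases between them. The ratio of Crybb1 to Cryba4 was 1.89 and 1.84 in the mutants and 1.66 and 1.68 in the controls, so both mutants were above both controls (means 1.86 ± 0.0307 and 1.67 ± 0.0130, SD, n = 2). Crybb2 and Crybb3 lie on the same strand, 5721 bases apart, and their ratio was 1.43 and 1.12 in the mutants and 1.66 and 1.63 in the controls. Both mutants were below both controls there (means 1.27 ± 0.222 and 1.64 ± 0.0234, SD, n = 2). An exact permutation test of either ratio has a p of at least 0.333. Ratios within a library do not depend on its denominator.

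On each side of a member, the nearest gene that averaged 0.1 FPKM or more was far lower, unless it was itself a member. Genes below that level were skipped, so some of those named are distant, up to 789459 bases for Mn1. On the outer sides of the chromosome 5 pairs, Mn1 averaged 1.21 FPKM, Tpst2 2.36, Grk3 0.475 and 2900026A02Rik 1.56. For Cryba2 these genes were Cdk5r2 and Nhej1, at 0.150 and 0.426 FPKM and 32201 and 73995 bases away. Nufip2, whose span covers Cryba1 on the opposite strand, was at 4.08, and Myo18a beyond it at 3.16, whereas Sik1 beyond Cryaa was at 1.15 and 1110032A03Rik beyond Cryab at 2.50. The opposite-strand features that overlap the other members were higher than these, with Gm50222, a long noncoding RNA gene across Cryaa, at 47.5 and Gm43247, a processed pseudogene that overlaps Crybb2 over 481 bases, at 59.1. Without the strand setting, reads of these features and of the crystallin genes cannot be told apart. Of the 31-base words of the longest coding transcript, 11.2% of those of Cryaa occur in another annotated gene, AC090881.2, and 0% of those of each of the 6 beta crystallins did.

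The fixed lists of related genes were read the same way, and 0 genes of any of them passed an adjusted p of 0.05 by limma. Of the 8 gamma crystallins, the other Greek-key crystallins of the fiber cell, 5 were higher and 3 lower in the mutant mean, with a median difference of 0.01 and a range of -0.14 to 0.26. They took 23.1% and 20.0% of the reads in the mutants and 21.5% and 21.6% in the controls. Of 7 further small heat shock proteins, the family of the alpha crystallins, 5 passed the filter and all 5 were higher in the mutant mean, with a median of 0.12 and 0 below an unadjusted p of 0.05. The most abundant of them, Hspb1, was at 1395 and 930 FPKM in the mutants and at 924 and 1187 in the controls, so its groups overlapped.

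Of 13 transcription factors of crystallin genes, 6 were higher and 7 lower, with a median of -0.03. Of the 13, 1 had an unadjusted p under 0.05, beside 6.31% of all genes tested. It was Mafg, a small Maf gene named after its values were seen (limma adjusted p = 0.784). Mafg was at 13.7 and 13.8 FPKM in the mutants and at 16.7 and 15.8 in the controls. Hsf4, the heat shock factor of the fiber cell, was at 170 and 157 FPKM in the mutants and at 135 and 153 in the controls. Foxe3, the forkhead factor of the lens epithelium, was at 103 and 122 in the mutants and at 109 and 119 in the controls. Maf, the principal fiber cell activator, was at 56.2 and 60.6 in the mutants and at 54.9 and 62.1 in the controls. The Maf and Foxe3 groups overlapped, and the 2 Hsf4 mutants were above both controls, where 36.6% of all genes tested did not overlap. Of 4 RNA-binding proteins of the lens, 2 were higher and 2 lower, and the most abundant, Tdrd7, whose loss causes cataract, was at 627 and 562 FPKM in the mutants and at 504 and 566 in the controls.

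Of 8 crystallin-related genes, most of them enzymes or distant relatives by fold, 5 passed the filter, with 1 higher and 4 lower. Lgsn, which encodes lengsin of the lens fiber, was the most abundant, at 19.0 and 5.54 FPKM in the mutants and at 28.5 and 41.0 in the controls (log2 difference -1.72, limma adjusted p = 0.769). Its mutants were below both controls, where 36.6% of all genes tested did not overlap. Mutant replicate 2 was the lowest library for Lgsn, as it was for 4 of the 8 members on deposited FPKM. Of 9 lens fiber markers, 8 passed the filter, 5 were higher and 3 lower, and the median difference was 0.07. The most abundant of these, Mip, the water channel of the fiber membrane, was at 3974 and 3515 FPKM in the mutants and at 3768 and 3906 in the controls, which is the same order of libraries within each genotype as in the members.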

How the data were processed

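RNA from pooled lenses of 10 to 12 day old mice was sequenced in 2 mutant and 2 control libraries. Per the methods of the study, the authors' provider aligned reads with HISAT2 and counted them with featureCounts. The 4 columns that the authors deposited hold FPKM, and the methods do not describe that step. The strand setting is not given in the sources used here. The study gives an n per group, without saying what it counts or how it was divided between the pools. Positions are those of the deposited table, and the processing notes name mm39. Promoters are from RefSeq (GRCm38.p6) and transcript lengths from GENCODE M21 (GRCm38), and no coordinates were converted.

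Whole reads were recovered from FPKM times gene length, with 100% of values whole within 0.01 of a read, giving 18561682 to 18878768 reads per library. The 15997 of 56748 genes that averaged 0.1 FPKM or more were tested as log2(FPKM + 0.1) with limma 3.58.1 (lmFit and eBayes with trend, R 4.3.3) and Benjamini-Hochberg adjustment over all of them. The pseudocount barely bears on the members, which are far above it. Shares and ratios of reads were tested with two-sided exact permutation tests. Alternatives were other scalings, pseudocounts, filters, voom on recovered reads, each library left out, a replicate block and an Xist covariate. The scripts were tested on simulated data.

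The 8 members are named in full. Of each list, counts are given and up to 3 of its most abundant genes are named. Crygs, Cryge, Mafg and Lim2 were named after their values were seen. Also named are Xist, Eif2s3y and the 5 genes of most like profile. On each side of a member, the nearest gene that averaged 0.1 FPKM or more is named too. The members and lists were chosen with earlier results of these data known.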

Additional observations from a re-analysis of the deposited data

How the results depend on the processing

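In all 16 alternative settings 0 members were called. In 6 of them (other filters, a pseudocount of 0.01, no trend, replicate block, Xist covariate) the members' estimates cannot move, or move by less than 1e-05, so their signs say nothing of stability. In the other 6 settings with all libraries, 1 of 48 differences turned its sign, Cryaa at -0.014 when scaled to total recovered reads. Each scaling moved all members by nearly the same amount, and a pseudocount of 1 hardly moved them. Only a small estimate could therefore turn, and the 48 are not independent checks of stability. With 1 library left out, 9 of 32 turned. Those of Crybb3, whose groups did not overlap, could not turn. With a library left out, limma's log2 difference ran from -0.061 to 0.095 for Cryaa, -0.100 to 0.24 for Cryab, -0.035 to 0.33 for Cryba1, -0.11 to 0.071 for Cryba2, -0.084 to 0.061 for Cryba4, 0.054 to 0.23 for Crybb1, -0.43 to 0.056 for Crybb2 and 0.12 to 0.25 for Crybb3. The lone library of a genotype is then assumed to vary like the pair. Likewise, the difference in alpha share ran from -0.439 to 0.339 percentage points, in beta share from -0.296 to 1.33, in the log2 beta to alpha ratio from 0.014 to 0.067 and in the log2 acidic to basic ratio from -0.034 to 0.128.

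Over all genes, limma called 6, and 14 with voom, 5 scaled to total reads, 2 with a pseudocount of 1 or 0.01, 1 without a filter, 2 with a mean FPKM of at least 1, 2 without a trend, 1 with the Xist covariate, and 0 without any 1 library (787 to 1465 at an unadjusted p under 0.05). With the replicate block 3 genes were called, 0 of them members. The block leaves the estimates as they are in this balanced design (Crybb3 0.19) and widened the standard error of Crybb3 from 0.18 to 0.31, with an interval of -0.61 to 0.99. The correlation of deviations by replicate number was -0.0051, a single value that cannot show whether the libraries were paired. With 2 pools per genotype, differences inside the intervals given are not excluded, and the intervals are not limits of detection.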
